A study of Homo sapiens with 12 samples.

Results

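The 9 genes described here encode the protein kinase complex mTORC1 and its closest regulators: MTOR, RPTOR, MLST8, DEPTOR, RHEB, TSC1, TSC2, RPS6KB1 and EIF4EBP1. They were chosen by name, and a ChIP-seq region belonged to a gene where it lay within 10 kb of the gene's start site in hg19. Over 10 peak lists, 250 of 1552170 regions on chromosomes 1 to 22 and X met that rule. All 9 genes had at least 1 deposited region for every histone antibody in both conditions. The lists came from Huh7, a human hepatocellular carcinoma line. Its VPS72 gene had received a C-terminal FLAG knock-in at the stop codon, and blasticidin-resistant colonies had been expanded. VPS72 is a subunit of the SRCAP and TIP60 complexes and a chaperone of the histone variant H2A.Z. The overexpression cells had received lenti-VPS72-FLAG virus for 24 h, and the control cells lenti-HA virus, the empty vector of the series, so both conditions carried the knock-in. The series title names mTORC1 as a step between VPS72 and lipid synthesis.

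In either condition there was 1 library for each antibody and 1 input, and the antibodies were directed at FLAG, H3K27ac, H3K4me1, total H2A.Z and its acetylated form (H2A.Zac). There was no replicate, so no difference between conditions was tested, and the intervals given are 95% exact Poisson intervals that cover counting error only. The tag was on the endogenous VPS72 in control cells, and on that and the lentiviral protein in overexpression cells. FLAG ChIP of untagged cells was not analysed here, so VPS72 binding and nonspecific FLAG signal cannot be told apart in any FLAG region. The labels do not say whether the knock-in line was 1 clone. Peak lists hold no expression values, so neither the liver identity of the cells nor the level of VPS72 or of any mTORC1 transcript was checked. Recovered depth was 20.4 to 25.02 M (mega) reads for the 4 histone antibodies with overexpression and 17.9 to 22.6 M in the control. FLAG was shallower, at 3.07 M reads with overexpression and 4.38 M in the control. The 2 inputs held no region at any of the 9 genes.

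mTORC1 is the protein kinase complex through which cells match growth to amino acids, growth factors and energy. MTOR is the catalytic subunit, RPTOR brings in the substrates, MLST8 steadies the kinase domain, and DEPTOR is a bound inhibitor. The small GTPase RHEB switches the complex on at the lysosome, and the TSC1 and TSC2 proteins hold RHEB in its inactive form. Among the substrates, the S6 kinase encoded by RPS6KB1 promotes ribosome production and translation, and the 4E-BP1 protein of EIF4EBP1 blocks the cap-binding factor eIF4E until mTORC1 phosphorylates it. In liver, mTORC1 is known to raise the activity of SREBP1, the transcription factor of fatty acid synthesis genes. H2A.Zac and H3K27ac mark active promoters and enhancers, and H3K4me1 marks enhancers and the flanks of promoters.

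Promoter sequences from RefSeq (GRCh38.p14) matched 6 of the 9 genes by symbol, which left MLST8, DEPTOR and EIF4EBP1 without one. The 250 bases before the start are shown for the genes whose promoters the results turn on most. RHEB (chr7:151519896-151520145, minus strand) and TSC1 (chr9:132944617-132944866, minus strand) had the highest H3K27ac. TSC2 (chr16:2047735-2047984, plus strand) had called H2A.Z, and RPS6KB1 (chr17:59892871-59893120, plus strand) had none. Capitals mark the motif matches named next.
RHEB: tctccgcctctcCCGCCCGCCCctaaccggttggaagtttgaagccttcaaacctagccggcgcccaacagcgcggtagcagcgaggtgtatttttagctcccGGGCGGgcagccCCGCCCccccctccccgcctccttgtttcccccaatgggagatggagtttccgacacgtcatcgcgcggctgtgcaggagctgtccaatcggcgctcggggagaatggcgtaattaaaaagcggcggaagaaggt
TSC1: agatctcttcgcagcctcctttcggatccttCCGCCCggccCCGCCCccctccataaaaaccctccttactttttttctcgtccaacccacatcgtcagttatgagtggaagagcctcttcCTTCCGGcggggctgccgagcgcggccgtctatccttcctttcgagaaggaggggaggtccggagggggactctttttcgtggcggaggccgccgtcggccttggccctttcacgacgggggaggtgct
TSC2: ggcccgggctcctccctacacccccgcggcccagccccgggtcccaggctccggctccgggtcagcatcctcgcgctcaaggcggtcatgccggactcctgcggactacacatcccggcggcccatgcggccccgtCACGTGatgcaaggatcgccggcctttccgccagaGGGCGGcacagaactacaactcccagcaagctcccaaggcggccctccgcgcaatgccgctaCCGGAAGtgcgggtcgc
RPS6KB1: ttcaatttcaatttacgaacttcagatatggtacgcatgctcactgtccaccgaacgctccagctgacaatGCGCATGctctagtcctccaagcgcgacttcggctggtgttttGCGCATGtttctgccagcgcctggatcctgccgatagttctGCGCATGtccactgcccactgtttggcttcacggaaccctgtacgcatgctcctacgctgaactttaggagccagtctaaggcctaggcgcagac

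Motifs were searched on both strands in the 6 matched promoters and in all 34788 promoters of the table, and positions count back from the start to the first base of a match. The GC box GGGCGG was in 42.6% of all promoters. It occurred 4 times in that of RHEB, where the matches at -238 and -234 overlap, and 7.61% of all promoters had as many. TSC1 had 2 GC boxes, and MTOR and TSC2 had 1 each. The ETS letters CCGGAAG were in 8.50% of all promoters, at -129 in TSC1 and at -17 in TSC2. The E-box CACGTG was in 6.31% of all promoters and, of the 6, in TSC2 at -114. RPS6KB1 held the letters GCGCATG 3 times, at -179, -136 and -95. At least 1 copy was in 3.71% of all promoters and as many as 3 in 0.164%, or 57 promoters. That motif was added after the sequences had been seen, as a shorter form of the NRF1 motif, which had no full match in the 6. Neither the CRE letters TGACGTCA, in 1.64% of all promoters, nor the AP-1 letters TGANTCA, in 6.59%, matched any of the 6. RPTOR held none of the motifs. TSC2 was the richest in CpG, with 27, ahead of RHEB with 24 and TSC1 with 22, against a median of 11 over all promoters. A match is a description of these letters and shows no binding.

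**Figure D1:**
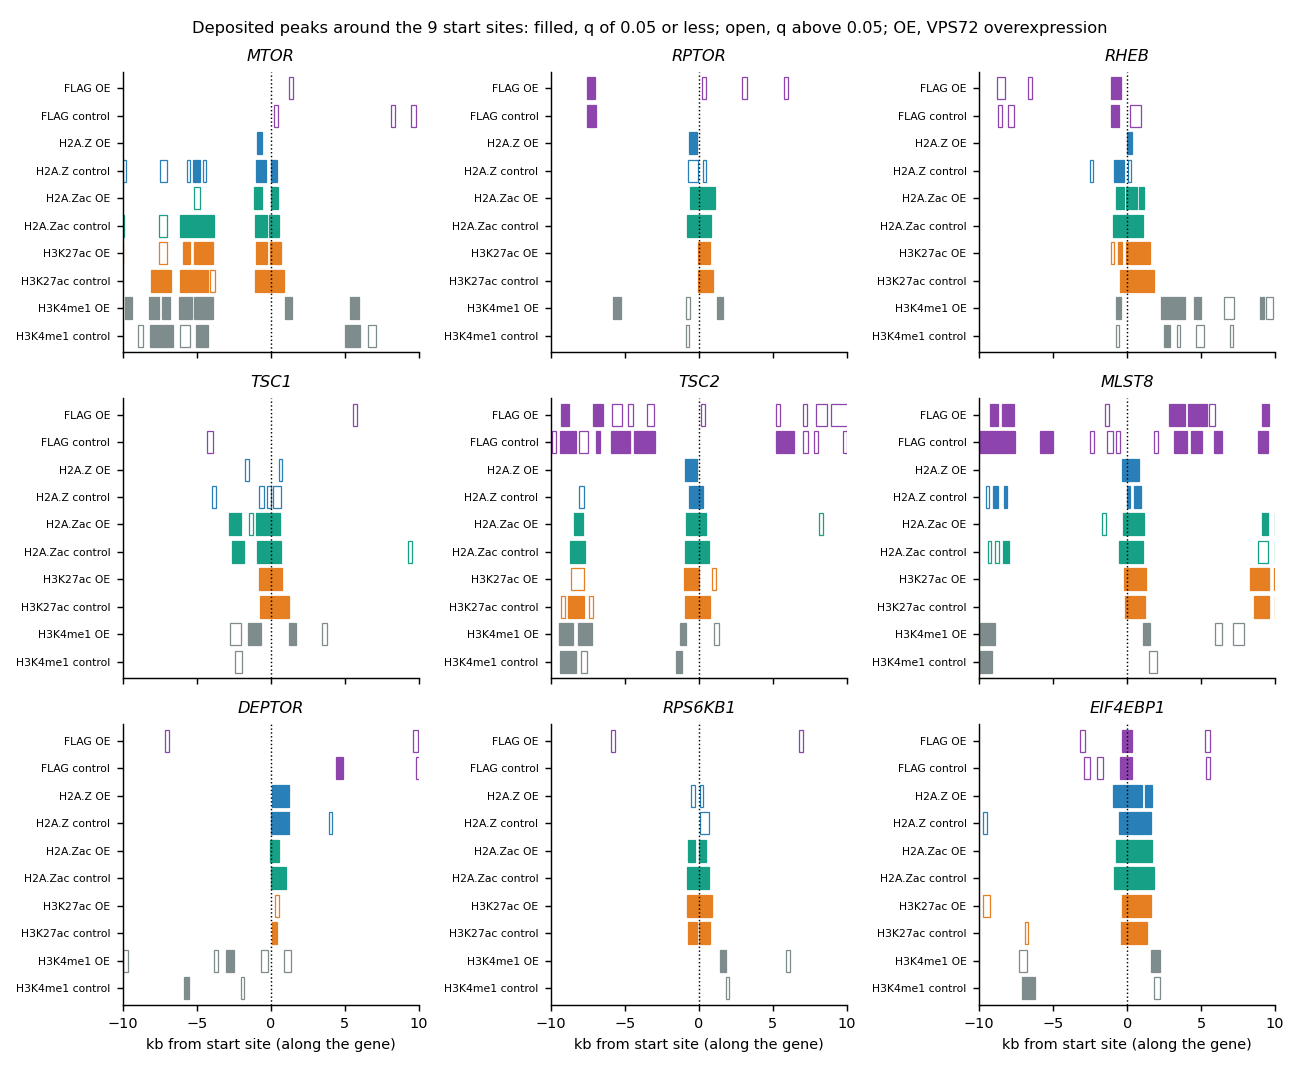
Deposited regions of the 10 ChIP lists around each start site, in kb along the gene, with overexpression above control for each antibody. Filled boxes have a q of 0.05 or less and open boxes a higher q. H2A.Zac and H3K27ac sit over nearly every start site, H3K4me1 lies to the sides, and FLAG regions crowd around TSC2 and MLST8.

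A region is termed called below where the authors' q was 0.05 or less, and listed where it was deposited with a higher q. Counts over the 9 genes were read against windows of the same 20 kb length on a fixed grid, because no hg19 gene annotation was used here. The grid held 140893 windows with a region of any antibody, of which 22092 had called H3K27ac in either condition. These windows are not centred on start sites.

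The acetyl marks covered nearly all of the group. H2A.Zac was called at 9 of 9 genes with overexpression and 9 of 9 in the control, where it was called in 15.7% of all windows with overexpression and 21.2% in the control. Among windows with H3K27ac, those shares were 67.1% with overexpression and 79.6% in the control. H3K27ac was called at 8 of 9 genes with overexpression, against 12.9% of all windows, and at 9 of 9 in the control, against 14.2%. The gene without a call with overexpression was DEPTOR, which had a listed region there. The start site itself lay under a called H2A.Zac region at 8 genes with overexpression, all but RPS6KB1, and at 8 in the control, all but DEPTOR. It lay under called H3K27ac at 8 genes in each condition, in both all but DEPTOR. In each condition every gene had an H2A.Zac summit within 500 bp of its start.

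Total H2A.Z was called at fewer of the genes. It was called at 7 of 9 genes with overexpression, against 8.45% of all windows and 35.2% of windows with H3K27ac. In the control it was called at 6 of 9, against 15.1% of all windows and 49.1% of windows with H3K27ac. TSC1 and RPS6KB1 had no called H2A.Z in either condition, and RPTOR had it with overexpression alone. H3K4me1 was called at 9 of 9 genes with overexpression, against 29.4% of all windows and 76.0% of windows with H3K27ac. In the control it was called at 6 of 9, against 9.75% of all windows and 35.6% of windows with H3K27ac. The whole H3K4me1 list held 85651 called regions with overexpression and 20108 in the control, so the count at the genes moved with that of the list. No start site lay under called H3K4me1 in either condition. The nearest summit was 630 bp away with overexpression, at RHEB, and 1360 bp away in the control, at TSC2.

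FLAG was called at 5 of 9 genes with overexpression, against 21.8% of all windows and 31.7% of windows with H3K27ac. In the control it was called at 6 of 9, against 26.5% of all windows and 38.4% of windows with H3K27ac. The genes with called FLAG in both conditions were RPTOR, RHEB, TSC2, MLST8 and EIF4EBP1, and DEPTOR had it in the control alone. MTOR, TSC1 and RPS6KB1 had none in either. The 5 genes held 10 called FLAG regions with overexpression, of 5 to 9 reads at the summit, and the 6 genes held 15 in the control, of 4 to 16 reads. Of these, 7 of 10 with overexpression and 11 of 15 in the control lay around TSC2 and MLST8, both on chromosome 16. The starts of these genes, at 2097990 and 2255178, lie in the same stretch of it. The FLAG regions in other windows of that stretch were not counted. Each of the 10 regions found with overexpression overlapped a called control region by at least 1 bp, as did 61.4% of all called FLAG regions with overexpression, and 74.0% of these overlapped any deposited control region. Of the 15 control regions, 13 overlapped a deposited region with overexpression and 9 a called one, where 68.4% of all called control regions overlapped a deposited one and 40.2% a called one. A called region of any histone antibody in the same condition overlapped 5 of 10 FLAG regions with overexpression and 5 of 15 in the control. Over the whole FLAG lists, the share was 14.5% with overexpression and 13.4% in the control. These shares are not like for like. The regions of the genes were taken near start sites that all had called H2A.Zac, and the lists were not limited to such places. FLAG summits lay a median of 7159 bp from the start with overexpression and 5552 bp away in the control. For H2A.Zac summits the median was 434 bp with overexpression and 422 bp for the control list.

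**Figure D2:**
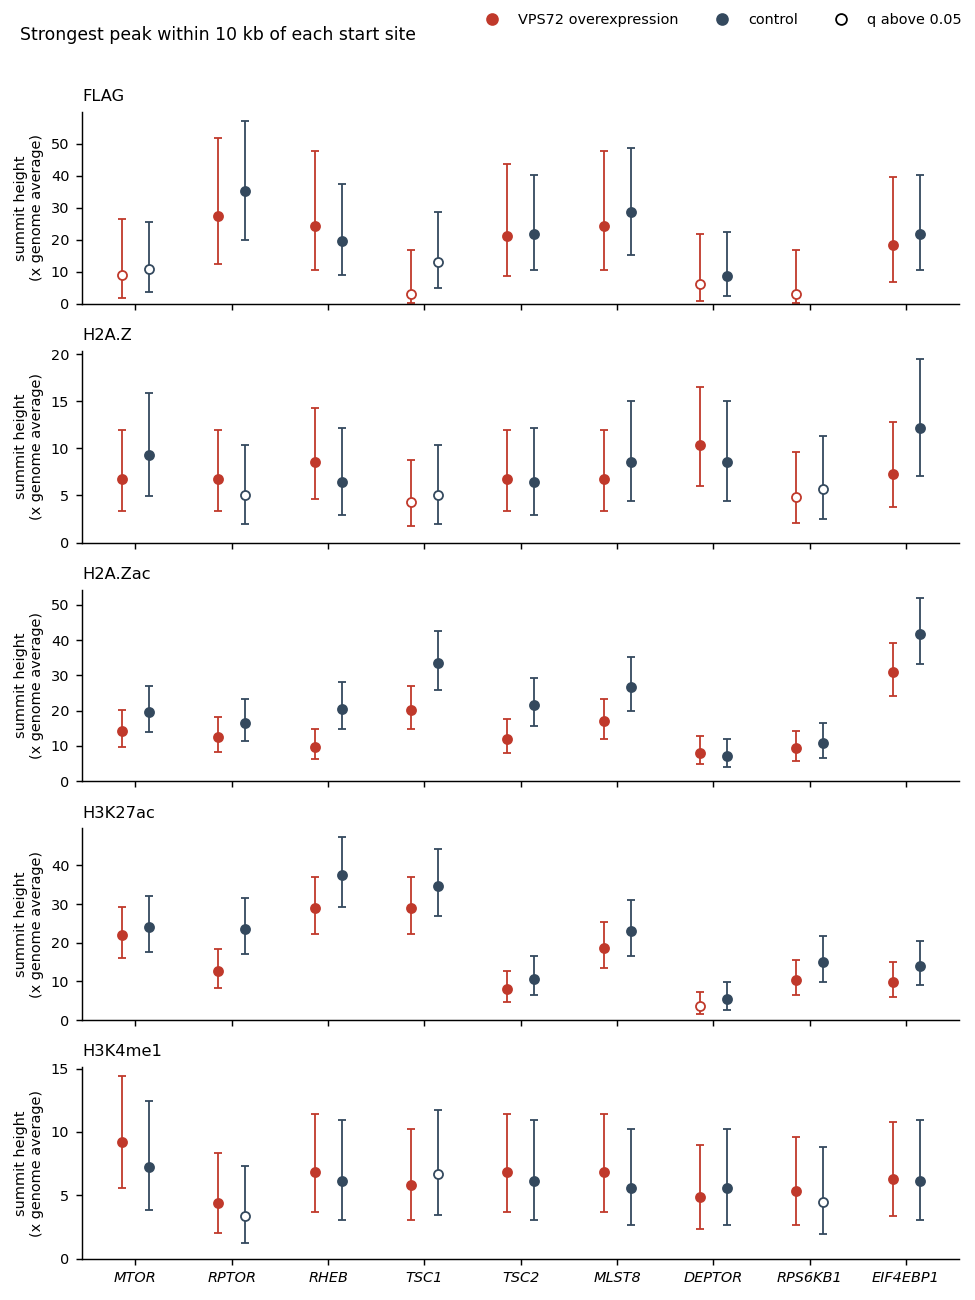
Summit height, in multiples of the library's genome average of reads, of the region with the smallest q within 10 kb of each gene, with overexpression left of control. Bars are 95% Poisson counting intervals, and open circles have a q above 0.05. EIF4EBP1 has the highest H2A.Zac and RHEB the highest control H3K27ac, and the vertical scale differs between panels.

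Heights are given below as summit reads in multiples of the genome average of the same library, so that libraries of different depth can be set side by side. For each gene and list, the region with the smallest q in the window stands for the gene unless another is named. Distances run along the gene from its hg19 start site, negative upstream, and the intervals beside read numbers are those of the reads. At the 10 kb edge, a few called regions reached into a window while their summits lay outside it. They were the control H2A.Zac region of MTOR at -10215 bp, of 5.15, and the H2A.Zac region of MLST8 about 10.3 kb downstream, of 10.7 with overexpression and 15.5 in the control. H3K27ac was called at that place of MLST8 too, at 6.53 with overexpression and 13.9 in the control.

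MTOR (start at 1:11322608), the kinase, had strong acetylation at its start and a second acetylated stretch upstream. H3K27ac at the start was 21.9 with overexpression and 24.0 in the control. H2A.Zac there was 14.3 with overexpression and 19.6 in the control. Both marks were thus lower with overexpression, with counting intervals that overlapped. The upstream stretch, at about 5 kb, carried H3K27ac of 14.9 at -4884 bp with overexpression and 19.2 at -4952 bp in the control (1:11326857-11328749). H2A.Zac on it was called in the control alone, at 10.3, and was listed with overexpression at 4.93. H3K4me1 was called on the stretch in both conditions and again at about 5.5 kb downstream, where it was 9.25 with overexpression and 7.25 in the control. With 7 called H3K4me1 regions with overexpression and 3 in the control, MTOR had the most of the 9 genes in each condition. Its H2A.Z was 6.70 with overexpression and 9.30 in the control, both just upstream of the start. Called H2A.Z also lay over the start in the control alone, at 160 bp and 7.87, and on the upstream stretch, at -5064 bp and 6.44. The highest FLAG of the MTOR window had 3 reads with overexpression and 5 in the control and was not called.

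RPTOR (start at 17:78518625), the subunit that presents substrates, combined marks at the start with a FLAG region far from them. Its FLAG region lay 7314 bp upstream with overexpression (17:78511065-78511625) and 7300 bp upstream in the control (17:78511046-78511682), so the summits were nearly superposed. It had 9 reads and a height of 27.3 with overexpression, and 16 reads and a height of 35.1 in the control. These were the highest FLAG values of the 9 genes, and no histone antibody had even a listed region there in either condition. At the start, H3K27ac was 12.6 with overexpression (27 reads, interval 17.8 to 39.3) and 23.5 in the control (44 reads, interval 32.0 to 59.1). H2A.Zac was 12.5 with overexpression and 16.5 in the control. H2A.Z was called with overexpression at 6.70 and listed in the control, where the region of smallest q was at 5.01. H3K4me1 was called only in the overexpression list, with 9 reads at each of its 2 regions.

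MLST8 (start at 16:2255178), the subunit that steadies the kinase, lay in the most crowded window. The gene table of GRCh38.p14 puts CASKIN1, BRICD5 and PGP within 10 kb of it, so regions away from the start may belong to these. At the start, H2A.Zac was 17.0 with overexpression and 26.8 in the control, and H3K27ac was 18.7 with overexpression and 23.0 in the control. H2A.Z was 6.70 with overexpression and 8.59 in the control. All of these 3 marks were lower with overexpression at this start. Another H3K27ac region, about 9.3 kb downstream, was 13.1 with overexpression and 22.4 in the control. FLAG formed 5 called regions with overexpression, of which the highest was 24.3 at -8208 bp. It formed 6 in the control, of which the highest was 28.5 at 3429 bp. The interval from 2258000 to 2260561 on chromosome 16 held called FLAG in both conditions and no called histone region. Its FLAG summits lay 3429 to 4765 bp downstream of the start. H3K4me1 was 6.81 with overexpression and 5.58 in the control, more than 9 kb upstream in both.

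DEPTOR (start at 8:120885957), the inhibitor, had the weakest acetylation of the group. H3K27ac was listed with overexpression at 3.73 and called in the control at 5.34, the lowest control value of the 9 genes. H2A.Zac was also the lowest of the 9 in each condition, at 8.06 with overexpression (18 reads) and 7.22 in the control (14 reads). Total H2A.Z was by contrast the highest of the 9 with overexpression, at 10.4 (17 reads), and was 8.59 in the control (12 reads). It was also 1 of the 2 H2A.Z regions of the group with a q of 1e-05 or less, the other being the control region of MTOR. The called regions of these 3 marks began close to the start and ran into the gene. FLAG was called in the control alone, 4667 bp downstream, on 4 reads.

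**Figure D3:**
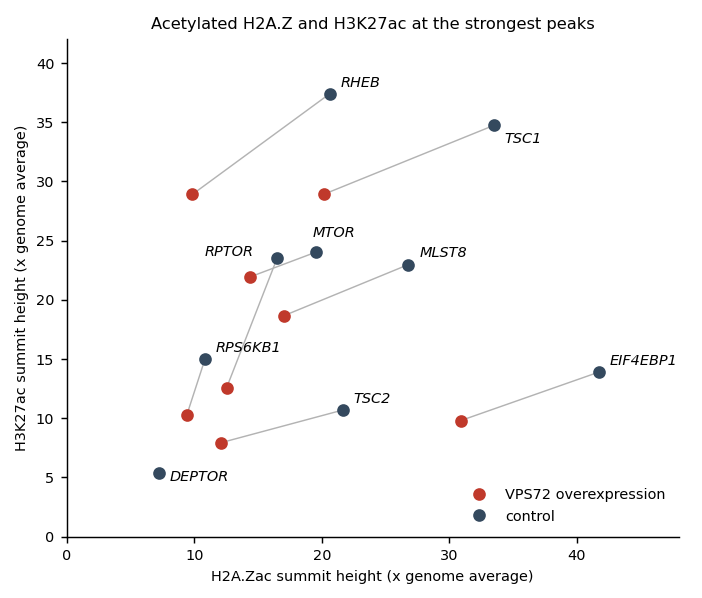
H2A.Zac height (x axis) and H3K27ac height (y axis) at the region of smallest q of each gene, as summit reads in multiples of the genome average, with a line from the overexpression point to the control point. EIF4EBP1 lies far to the right with modest H3K27ac, RHEB lies at the top, and DEPTOR has a control point only because its H3K27ac was not called with overexpression.

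RHEB (start at 7:151217010), the GTPase that activates the kinase, had the highest H3K27ac in the control and, with TSC1, the highest with overexpression. H3K27ac was 28.9 with overexpression (62 reads) and 37.4 in the control (70 reads), 422 bp downstream of the start with overexpression and 376 bp downstream in the control. Of the called regions of the whole list, 3.27% were higher with overexpression and 3.30% in the control. H2A.Zac was 9.85 with overexpression (22 reads, interval 13.8 to 33.3) and 20.6 in the control (40 reads, interval 28.6 to 54.5). The overexpression list broke H2A.Zac into 3 called regions with the highest summit 435 bp downstream, and another at -530 bp had 18 reads (interval 10.7 to 28.4). Their counting intervals overlapped, so which was higher cannot be told. The control list had 1 region with its summit 442 bp upstream. H2A.Z had its called summit 183 bp downstream with overexpression, at 8.53, and 372 bp upstream in the control, at 6.44. FLAG was called 803 bp upstream with overexpression on 8 reads (7:151217417-151218076), at 24.3, and 809 bp upstream in the control on 9 reads (7:151217580-151218099), at 19.7. The local background of the peak caller at that place was 3.02 times the genome average with overexpression and 3.12 times in the control, and its part in the FLAG call was not tested.

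TSC1 (start at 9:135820020), the scaffold of the complex that restrains RHEB, had high acetylation without called H2A.Z or FLAG. H2A.Zac was 20.1 with overexpression (45 reads, interval 32.8 to 60.2) and 33.5 in the control (65 reads, interval 50.2 to 82.8). H3K27ac was 28.9 with overexpression and 34.7 in the control. Both summits of both marks lay 95 to 125 bp upstream of the start, the closest of the group. Of the whole H2A.Zac list, 5.55% of called regions were higher with overexpression and 2.67% in the control. A further H2A.Zac region was called upstream, at -2185 bp and 8.51 with overexpression and at -2211 bp and 7.73 in the control. Total H2A.Z was listed around the start with at most 7 reads with overexpression and 8 in the control, where H2A.Zac had 45 with overexpression and 65 in the control. H3K4me1 was called 933 bp upstream and 1458 bp downstream with overexpression, on both sides of the acetylated start. The only control region was listed, 2193 bp upstream, and overlapped neither of these. In GRCh38.p14, GFI1B and MIR548AW lie within 10 kb of the TSC1 start, so regions away from the start may belong to them.

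TSC2 (start at 16:2097990), the GTPase-activating partner of TSC1 that acts on RHEB, had lower acetylation than TSC1 and many FLAG regions. H2A.Zac was 12.1 with overexpression (27 reads, interval 17.8 to 39.3) and 21.6 in the control (42 reads, interval 30.3 to 56.8). H3K27ac was 7.93 with overexpression, the lowest called value of the group in that condition, and 10.7 in the control. H2A.Z was 6.70 with overexpression and 6.44 in the control. The gene table puts NTHL1 and NHERF2 within 10 kb, and a promoter region shared with either cannot be told apart here. A second set of regions 7 to 9 kb upstream carried H3K4me1 of 6.81 with overexpression and 6.14 in the control, with called H2A.Zac in both conditions. FLAG was called in 2 regions with overexpression, at 21.2 and 15.2, and in 5 in the control, of 5 to 10 reads. The control regions at -5552, -3620 and 6179 bp had listed but not called FLAG with overexpression.

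RPS6KB1 (start at 17:57970443), the S6 kinase gene, had moderate acetylation and neither called H2A.Z nor called FLAG. H2A.Zac was 9.40 with overexpression, at -434 bp, and 10.8 in the control, at 209 bp, with 21 reads in each library. These summits lay on opposite sides of the start. The other overexpression region, at 187 bp, was 7.61 on 17 reads. H3K27ac was 10.3 with overexpression and 15.0 in the control. In the overexpression list the H2A.Zac signal lay in 2 regions with the start between them, and in the control list in 1 region over the start. H3K4me1 was called at 1558 bp with overexpression. The only control region was listed, at 2012 bp, and did not overlap it. The gene table puts TUBD1 and a pseudogene within 10 kb of it.

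EIF4EBP1 (start at 8:37888020), the gene of the translation repressor 4E-BP1, had the highest H2A.Zac of the group and was the only 1 of the 9 with FLAG over its start. H2A.Zac was 30.9 with overexpression (69 reads, interval 53.7 to 87.3) and 41.7 in the control (81 reads, interval 64.3 to 100.7). Of the called regions of the whole list, 0.833% were higher with overexpression and 0.933% in the control. H3K27ac did not follow that rank, at 9.79 with overexpression and 13.9 in the control. Over the genes with both calls, Spearman's rho between the 2 acetyl marks was 0.08 with overexpression (8 genes) and 0.22 in the control (9 genes), a description over points that share their libraries. H2A.Z formed 2 regions with overexpression, of 9.14 and 7.31, and 1 in the control, of 12.2. FLAG was called at 147 bp with overexpression on 6 reads (8:37887654-37888375), at 18.2, and at -199 bp in the control on 10 reads (8:37887551-37888312), at 21.9. That region overlapped called H2A.Z, H2A.Zac and H3K27ac in each condition. Its local background was 3.29 times the genome average with overexpression and 3.12 times in the control, and the part of that in the FLAG call was not tested.

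**Figure D4:**
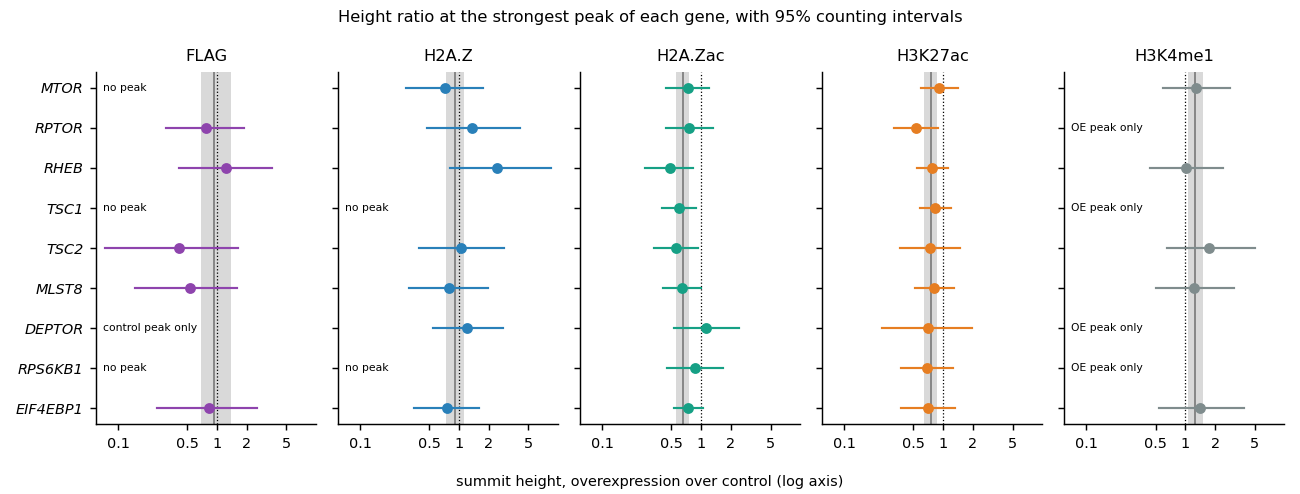
Summit height with overexpression over that in the control at the region of smallest q in either list, for each gene and antibody, on a log axis with 95% counting intervals. The grey line and band are the median and the middle part (25th to 75th percentile) of the same ratio over all 20 kb windows with a pair, and the dotted line is at 1. Acetyl ratios of the genes mostly lie left of 1 and around the grey band.

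For a direct ratio, the called region of smallest q in either list was paired with the highest overlapping region, listed or called, of the other condition. At every pair of the genes the ratio was above 1 where the overexpression list supplied that region, and below 1 where the control list did. With the control list choosing throughout, 0 genes with a pair were higher with overexpression for H3K27ac, 1 for H2A.Zac and 4 for H3K4me1. With the overexpression list choosing, these counts were 0, 1 and 5. For H2A.Z they were 2 with the control list and 4 with the overexpression list, and for FLAG 1 and 3. The direction of H2A.Z and FLAG thus cannot be read apart from this choice. H3K27ac was lower with overexpression at 9 of 9 genes, and at 88.3% of all windows with a pair. The ratio of overexpression to control ran from 0.536 at RPTOR to 0.911 at MTOR, with a median of 0.742 against 0.748 over all windows. Of the 9, only RPTOR had a counting interval below 1 (0.319 to 0.884), as 12.1% of windows with a pair did, and 8.13% of windows had a smaller ratio. The genes thus moved as the whole list did, and with 1 library a condition the treatment and the library cannot be told apart. In these bulk libraries, fewer cells with a mark and less of it per cell cannot be told apart either.

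H2A.Zac was lower with overexpression at 8 of 9 genes, and at 95.5% of all windows with a pair. The median ratio was 0.732 over the genes and 0.652 over all windows. The counting interval lay below 1 at 4 of 9 genes, and at 27.1% of windows with a pair, in a list that was lower almost throughout. These shares are not like for like, because more reads give narrower intervals and the genes had high H2A.Zac. Their median height was 12.5 with overexpression and 20.6 in the control, against 8.95 and 9.79 over the called regions of the lists. The ratio was 0.478 at RHEB (0.270 to 0.823), 0.558 at TSC2 (0.331 to 0.927), 0.601 at TSC1 (0.402 to 0.893) and 0.635 at MLST8 (0.407 to 0.983). These 4 lay below the windows' median, and 10.3% of windows had a smaller ratio than RHEB, 25.7% than TSC2, 36.9% than TSC1 and 46.3% than MLST8. Their intervals overlapped those of the other 5 genes. The RHEB ratio compared an overexpression summit 435 bp downstream with a control summit 442 bp upstream. The overexpression region at -530 bp, on the control's side, was lower, at 8.06 on 18 reads. MTOR, EIF4EBP1 and RPTOR had ratios of 0.732, 0.740 and 0.760, with intervals that held 1, and RPS6KB1 had 0.869. The RPS6KB1 ratio compared summits on opposite sides of the start. DEPTOR was the exception at 1.12 (0.525 to 2.43), on 18 reads with overexpression and 14 in the control, and 97.9% of windows had a smaller ratio.

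H2A.Z gave 7 pairs with no common direction: 4 were higher and 3 lower with overexpression, where 63.9% of windows with a pair were lower. The ratios ran from 0.721 at MTOR to 2.38 at RHEB, with a median of 1.04 against 0.905 over all windows, and every interval held 1. The ratio of RHEB set 14 overexpression reads downstream of the start beside 5 control reads in an overlapping listed region, while the called control region lay upstream. At RPTOR, RHEB and TSC2 the H2A.Z ratio was above 1 and the H2A.Zac ratio below it, and at DEPTOR both were above 1. At all of these genes the overexpression list had supplied the H2A.Z region. The control list had supplied the H2A.Zac region at RPTOR, RHEB and TSC2, and the overexpression list that of DEPTOR. With the control list choosing throughout, 2 genes were higher for H2A.Z. The contrast between the marks thus went with the choice of region, and the difference between them was not tested.

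H3K4me1 gave 5 pairs, all higher with overexpression, with ratios of 1.02 at RHEB to 1.75 at TSC2 and a median of 1.28 against 1.26 over all windows. The overexpression list supplied all 5 regions, and the control partners at RHEB, TSC2 and EIF4EBP1 were listed, not called. At TSC2 the partner was 3.90. The called control region of TSC2, of 6.14, overlapped another overexpression region, at -8786 bp, which was also 6.81. With the control list choosing, 4 genes were higher and EIF4EBP1 was lower. Its called control region at -6909 bp was 6.14, and the listed region there with overexpression was 3.89. Only 19.0% of windows with a pair were lower, and every interval of the 5 genes held 1. At RPTOR, TSC1, DEPTOR and RPS6KB1 the region had no overlapping deposited region in the control, although DEPTOR had a called control region further upstream. Of all windows with called H3K4me1, 41.7% were of this kind, so 4 of 9 genes is near the background. These 4 regions had 9 to 12 reads, near the least that was called in the overexpression list around the genes, which was 9.

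FLAG gave 5 pairs, of which 4 were lower with overexpression, where 55.6% of windows with a pair were lower. The ratios ran from 0.415 at TSC2, on 3 reads with overexpression and 10 in the control, to 1.23 at RHEB, on 8 reads with overexpression and 9 in the control. The median was 0.779 over the genes and 0.923 over all windows, and every interval held 1. No direction can be read from these 5 ratios, and the other 4 genes gave none.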

How the data were processed

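Peak lists of 12 libraries were used, 1 for each antibody and condition, grouped by the sample titles. The genotype labels of the overexpression libraries other than the input carry running VPS numbers and were read as VPS72 from the titles. MACS2, BWA, Trimmomatic and FastQC are named in the submitters' processing notes, without versions, and these do not state the caller's control or thresholds. The notes name hg19 and hg38, and the contig names of the deposited lists are those of hg19. The deposited score, fold (a ratio of summit to local background), −log10 p, −log10 q and summit offset are the authors' own values for each peak. The lowest −log10 p was 1.30 or 1.31 in every list, so the authors kept peaks at a p of 0.05. The fold, p and q were used to describe, rank or filter peaks, and the score was not used.

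The number of reads at a summit follows from the deposited fold and the −log10 p by the MACS2 Poisson formula, and a tolerance of 0.002 on −log10 p was allowed. It came out whole for at least 99.999% of peaks in each ChIP list. Depth assumes a genome of 2.7 Gb. The recovery was tested on simulated data. The fold and the calls depend on depth, so heights over the library average were compared. A peak belonged to a gene where it came within 10 kb of the start site by any overlap of at least 1 bp. Intervals are exact Poisson intervals, and for a ratio the exact interval of 2 Poisson counts, and reads are not known to be independent molecules. All 9 genes were named, each by the peak of smallest q. The members and the lists were chosen with earlier results of these data known. A list of other mTORC1 pathway genes was not analysed here, since no annotation of the files' build was used. Gene names of neighbours and promoters came from RefSeq tables of GRCh38.p14, and coordinates were not converted. The software was scipy 1.17.1, pandas 2.3.3 and numpy 2.4.6 under Python 3.11.15, with matplotlib 3.10.9 for figures. The alternatives were another limit on q, another window, another rule for the compared peak and the authors' fold in place of the height.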

Additional observations from a re-analysis of the deposited data

How the results depend on the processing

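Of 95 alternatives over the counts of genes and the covered lengths, 73 stayed within 1.5 times the reported value and 22 did not. H2A.Zac and H3K27ac calls stayed within it under every limit on q and every window tried. FLAG was called at 5 genes with overexpression and 6 in the control. With every deposited peak the overexpression count was 9, within 5 kb it was 3, and within 2 kb it was 2. At a q of 1e-05 or less it was 2 with overexpression and 3 in the control, and within 2 kb the control count was 2. H2A.Z at a q of 1e-05 or less was left at 1 gene with overexpression and 1 in the control. H3K4me1 at that limit was left at 1 gene with overexpression and 0 in the control. For the control it was 1 at a q of 0.01 or less, 1 within 2 kb and 3 within 5 kb. The cause was not tested beyond what fewer peaks or a smaller window give by construction.

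The number of genes higher with overexpression was 3 in place of 1 for FLAG where the overexpression list chose the peak, and 2 in place of 4 for H2A.Z where the control list chose it. It was 2 in place of 1 for H2A.Zac by the authors' fold. For H3K4me1 it was 3 in place of 5 both with the peak nearest the start and within 2 kb. With every deposited peak, the covered length was 16233 bp in place of 7248 bp for FLAG with overexpression and 20842 bp in place of 13665 bp in the control. It was 13173 bp in place of 7737 bp for control H2A.Z, and 12527 bp in place of 7339 bp for control H3K4me1.

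No paired analysis was possible because each group held 1 library, and leaving out a library leaves no comparison. FLAG summits of 4 to 16 reads limit every FLAG comparison.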
